A study of Mus musculus with 12 samples.

Results

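The replication-dependent histone genes were followed in LSKs (Lin- Sca-1+ c-Kit+ cells, the bone marrow (BM) fraction that holds hematopoietic stem and progenitor cells). They were taken as every protein-coding gene of the deposited table whose symbol begins with Hist1h, Hist2h, Hist3h or Hist4h, which gave 67 of 53465 genes: 6 of the linker class H1, 18 of H2A, 18 of H2B, 12 of H3 and 13 of H4. Their positions are those of GRCm38: 54 lie in the Hist1 cluster on chromosome 13, 10 in Hist2 on chromosome 3, 2 in Hist3 on chromosome 11 and 1, Hist4h4, on chromosome 6. Libraries came from male mice of 8 to 10 weeks in 4 groups of 3: untreated Tespa1+/+ (littermate wild type), untreated Tespa1-/- (the B6.129S-Tespa1tm1Smoc allele, backcrossed to C57BL/6), and both genotypes at day 9 after a single injection of 150 mg/kg 5-fluorouracil (5-FU), a drug that kills dividing cells. Groups are named below by genotype and treatment, and libraries are listed in the order of replicates 1, 2 and 3.

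These genes encode the core histones, around which DNA is wound in the nucleosome, and the linker histones, which bind the DNA between nucleosomes. They are transcribed mainly in S phase, when newly made DNA needs histones, and their mRNAs usually end not in a poly-A tail but in a short stem-loop bound by the protein Slbp. The libraries were made from RNA captured by its poly-A tail, so what was counted is the tailed or carried-over part of these transcripts, and it cannot be told from these counts which of these it was.

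A 16-base 3′ stem-loop of the histone type was present in an annotated GENCODE M21 transcript of 46 members, against 59 of 55450 annotated genes (0.106%). The models of the other 21 members held none, which says only that these letters are not in the annotated transcript. Of the 46, 26 carried the form of Hist1h2ao and 7, all of class H4, that of Hist1h4d. The examples are the most abundant H1, H2A, H3 and H4 members and 2 members with less common forms, each with 5 bases on either side and the stem-loop in capitals (coordinates are those of the stem-loop, GRCm38).
Hist1h2ao, chr13:21810898-21810913, plus strand: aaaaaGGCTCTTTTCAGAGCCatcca
Hist1h1c, chr13:23739512-23739527, plus strand: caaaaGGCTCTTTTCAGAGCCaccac
Hist1h3b, chr13:23752820-23752835, plus strand: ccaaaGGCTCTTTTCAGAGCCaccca
Hist1h4d, chr13:23581950-23581965, plus strand: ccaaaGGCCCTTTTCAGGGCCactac
Hist1h3e, chr13:23561903-23561918, minus strand: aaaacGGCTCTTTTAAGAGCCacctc
Hist2h4, chr3:96262939-96262954, minus strand: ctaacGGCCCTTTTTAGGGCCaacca
Of the 46 models, 23 ran at least 100 bases past the stem-loop, among them Hist1h1c with 840 bases, Hist1h4d with 770 and Hist2h4 with 1257. The other 23, among them Hist1h2ao with 31 bases and Hist1h3b with 51, ended within 99 bases of it.

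Promoters are shown because their sequence features differed between the classes. RefSeq promoters (GRCm38.p6) were matched for 62 members, as 63 entries. TATAAA on the gene's strand was found within 250 bases before the start in 38.1% of these entries, against 7.59% of 32851 promoters of all genes. CCAAT on either strand was found in 82.54% against 33.85%. ATTTGCAT on either strand, the octamer of H2B promoters, was found in 22.22% against 1.6%, in 7 H2A and 7 H2B entries. No entry of the other classes held it. CCAAT was in 100% of the H1, H2A and H2B entries, in 80% of the H3 entries and in 25% of the H4 entries. Windows of H2A and H2B genes that start near each other on opposite strands can cover the same bases. Those of Hist1h2ae and Hist1h2bg did, so a single motif can count in both classes. The 120 bases before the RefSeq start are given for a highly expressed member of 4 classes, with these 3 motifs in capitals, the last 2 on either strand. A match is a description of the sequence and not of a bound factor.
Hist1h1b, chr13:21780626-21780745, minus strand: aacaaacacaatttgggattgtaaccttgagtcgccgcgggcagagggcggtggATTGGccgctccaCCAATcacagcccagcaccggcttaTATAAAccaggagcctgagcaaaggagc
Hist1h2bg, chr13:23571280-23571399, plus strand: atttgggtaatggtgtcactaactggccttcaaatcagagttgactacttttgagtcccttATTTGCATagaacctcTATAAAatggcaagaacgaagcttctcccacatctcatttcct
Hist1h3b, chr13:23752225-23752344, plus strand: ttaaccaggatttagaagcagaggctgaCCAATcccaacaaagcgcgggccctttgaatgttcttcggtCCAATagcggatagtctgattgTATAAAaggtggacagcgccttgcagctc
Hist1h4d, chr13:23581448-23581567, plus strand: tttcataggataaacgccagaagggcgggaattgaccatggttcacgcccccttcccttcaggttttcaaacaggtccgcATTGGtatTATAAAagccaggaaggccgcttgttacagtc
Members also lie head to head: 12 pairs of an H2A and an H2B gene start from opposite strands with 176 to 306 bases between their annotated starts.

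Per base of gene model, the class with the highest single member was H2A. Hist1h2ao had a median of 3627 FPKM (fragments scaled by gene length and library size) over the 12 libraries and Hist2h2aa1 had 1127. The highest H2B member was Hist1h2bn with 811 FPKM, the highest H1 member Hist1h1a with 609.9, the highest H4 member Hist1h4h with 427 and the highest H3 member Hist1h3h with 372. The median over the members was 145 FPKM. The lowest 4 were Hist2h2be, with 1.86 FPKM, and the germ-cell members: Hist1h2aa, the testis H2A, had 0.221 FPKM, Hist1h2ba, the testis H2B, 3.71, and Hist1h1t, the testis linker histone, 1.92. Hist1h2aa had at most 0.115 CPM (counts scaled to library size with TMM factors) in any library and was the only member removed by the filter on low counts, so 66 members were tested. These levels depend on the length of the gene model, which was 7425 bases for Hist1h1d, and on how reads of near-identical copies were assigned: in the median member 49.5% of the 50-base stretches of its transcripts also occurred in another gene.

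Gene counts of a library summed to 22118154 at the lowest and 28275079 at the highest. The smallest level taken as detectable, 3 counts, was 0.106 to 0.136 CPM and covers counting error only. Members took 0.893% to 1.65% of the counts of a library. Tespa1 itself was lower in Tespa1-/- but not absent: untreated it was at 43.1 to 51 CPM in Tespa1+/+ and 34.5 to 34.9 CPM in Tespa1-/- (log2 fold change -0.42 ± 0.09 (SE), edgeR adjusted p = 0.0316), and after 5-FU at 47.1 to 57.2 and 17.2 to 20.7 CPM (log2 fold change -1.47 ± 0.12 (SE), edgeR adjusted p = 9.38e-05). The 10 LSK markers examined, Kit and Ly6a (which encodes Sca-1) among them, were detected in every group, with a summed level of 1624 to 1675 CPM in untreated Tespa1+/+, 1334 to 1384 in untreated Tespa1-/-, 1328 to 1369 in Tespa1+/+ after 5-FU and 796 to 862 in Tespa1-/- after 5-FU. Between genotypes, 3 of these 10 fell in untreated Tespa1-/- and 7 of 10 after 5-FU, against 3.59% and 5.78% of all genes tested. Nothing in the labels says that libraries of a group came from separate mice, so p-values measure the spread between these libraries, which may be technical.

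The levels of 4 members were unequal between replicates. In Hist2h2aa1, Hist2h3c1, Hist1h2bq and Hist1h2br, libraries of 1 group differed by more than 2-fold at a group mean of at least 20 CPM. This limit was chosen after the values were seen. Hist1h2bq had 229, 193 and 203 CPM in the untreated Tespa1+/+ libraries, 264, 15.7 and 16.5 CPM in untreated Tespa1-/-, 281, 16.7 and 250.03 CPM in Tespa1+/+ after 5-FU and 264, 303 and 279 CPM in Tespa1-/- after 5-FU. Of its 12 libraries, 3 thus stood at 15.7 to 16.7 CPM and the other 9 at 193 to 303 CPM. Hist1h2br had 148, 159 and 47.9 CPM in the untreated Tespa1+/+ libraries, 176, 44.5 and 185 CPM in untreated Tespa1-/-, 160.3, 152 and 72.5 CPM in Tespa1+/+ after 5-FU and 79.5, 205 and 183 CPM in Tespa1-/- after 5-FU. One library in each group was low, and these did not all have the same replicate number. Of their 50-base stretches, 97.3% and 88.7% also occurred in another gene.

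Hist2h2aa1 and Hist2h3c1 are neighbours on chromosome 3 (chr3:96245497-96246082 and chr3:96246685-96248509) that both overlap Gm20634, a processed transcript on the same strand. Hist2h2aa1 had 277, 515 and 246 CPM in the untreated Tespa1+/+ libraries, 342, 729 and 706 CPM in untreated Tespa1-/-, 669.8, 623 and 672 CPM in Tespa1+/+ after 5-FU and 784, 768 and 4.28 CPM in Tespa1-/- after 5-FU. Its lowest library, replicate 3 of Tespa1-/- after 5-FU, held 1052 CPM of Gm20634, against 11.4 and 7.63 CPM in the other two. Hist2h3c1 had 98.9, 1.11 and 84.8 CPM in the untreated Tespa1+/+ libraries, 124, 372 and 0.087 CPM in untreated Tespa1-/-, 98.5, 0.154 and 199 CPM in Tespa1+/+ after 5-FU and 458, 479.6 and 154 CPM in Tespa1-/- after 5-FU. Added over the 3 models, the level was 501 to 574 CPM in untreated Tespa1+/+, 716 to 1117 in untreated Tespa1-/-, 631 to 972 in Tespa1+/+ after 5-FU and 1210.4 to 1255 in Tespa1-/- after 5-FU. The sum did not overlap between the genotypes under either treatment, although neither member was called in a comparison of genotypes.

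**Figure D1:**
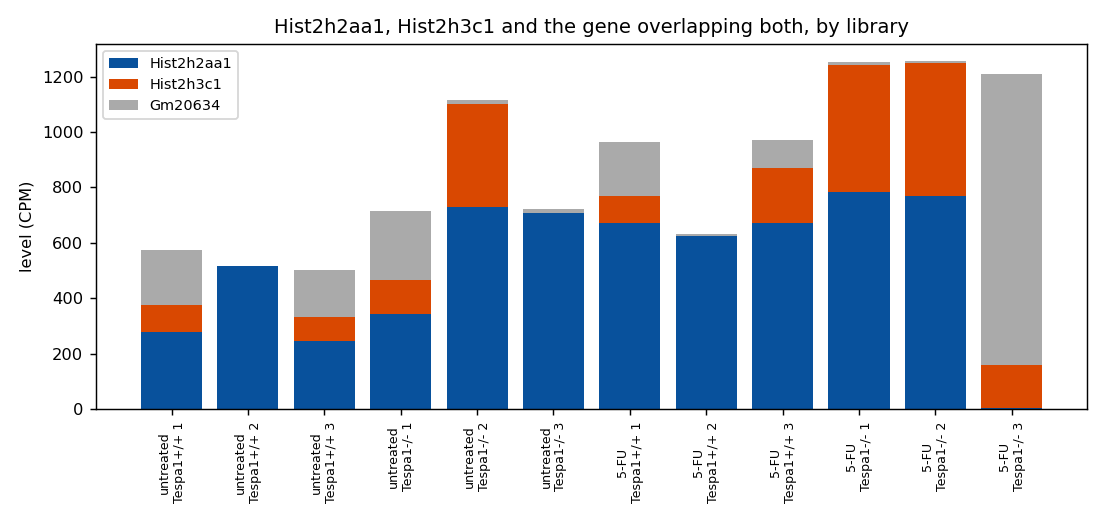
Level (CPM) of Hist2h2aa1, Hist2h3c1 and the overlapping Gm20634 as stacked bars, 1 bar per library in 4 groups of 3. The division among the 3 models changes from library to library. The total is 501 to 574 CPM in untreated Tespa1+/+ and 716 to 1117 CPM in untreated Tespa1-/-. It is 631 to 972 CPM in Tespa1+/+ after 5-FU and 1210.4 to 1255 CPM in Tespa1-/- after 5-FU.

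Summed over all 67 members, the level was 10329, 9654 and 9066 CPM in the untreated Tespa1+/+ libraries, 12539.9, 12936 and 12613 in untreated Tespa1-/-, 12188, 11221 and 11630.4 in Tespa1+/+ after 5-FU and 15356, 16505 and 14787 in Tespa1-/- after 5-FU. Untreated Tespa1+/+ was lowest and Tespa1-/- after 5-FU highest, and no 2 groups overlapped. The group means were 9683 ± 632, 12696 ± 211, 11679.9 ± 486 and 15549 ± 875 CPM (SD, n = 3 each). The mean of Tespa1-/- was 1.31 times that of Tespa1+/+ in untreated LSKs and 1.33 times after 5-FU. By class, this ratio in untreated LSKs was 1.34 for H1, 1.35 for H2A, 1.16 for H2B, 1.37 for H3 and 1.38 for H4. After 5-FU it was 1.43 for H1, 1.22 for H2A, 1.16 for H2B, 1.72 for H3 and 1.47 for H4. Summed H1, H2A, H3 and H4 did not overlap between the genotypes under either treatment. Summed H2B did: untreated it was 1859.8 to 2293 CPM in Tespa1+/+ and 2197 to 2586 in Tespa1-/-, and after 5-FU 2270.4 to 2634 and 2576 to 2999.9. Without Hist1h2bq and Hist1h2br, 2 of the 4 members of unequal replicates, it did not: untreated it was 1609 to 1916 CPM in Tespa1+/+ and 2137 to 2156 in Tespa1-/-, and after 5-FU 2052 to 2193 and 2232 to 2493. The ratio of H2B was then 1.24 untreated and 1.13 after 5-FU. Without Hist2h2aa1 the ratio of H2A was 1.31 untreated and 1.30 after 5-FU, and without Hist2h3c1 that of H3 was 1.30 and 1.55. Leaving these members out was chosen after seeing the data. In bulk samples, a change in the share of cells that carry these transcripts and a change in the amount per cell cannot be told apart. No test was made on these sums.

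**Figure D2:**
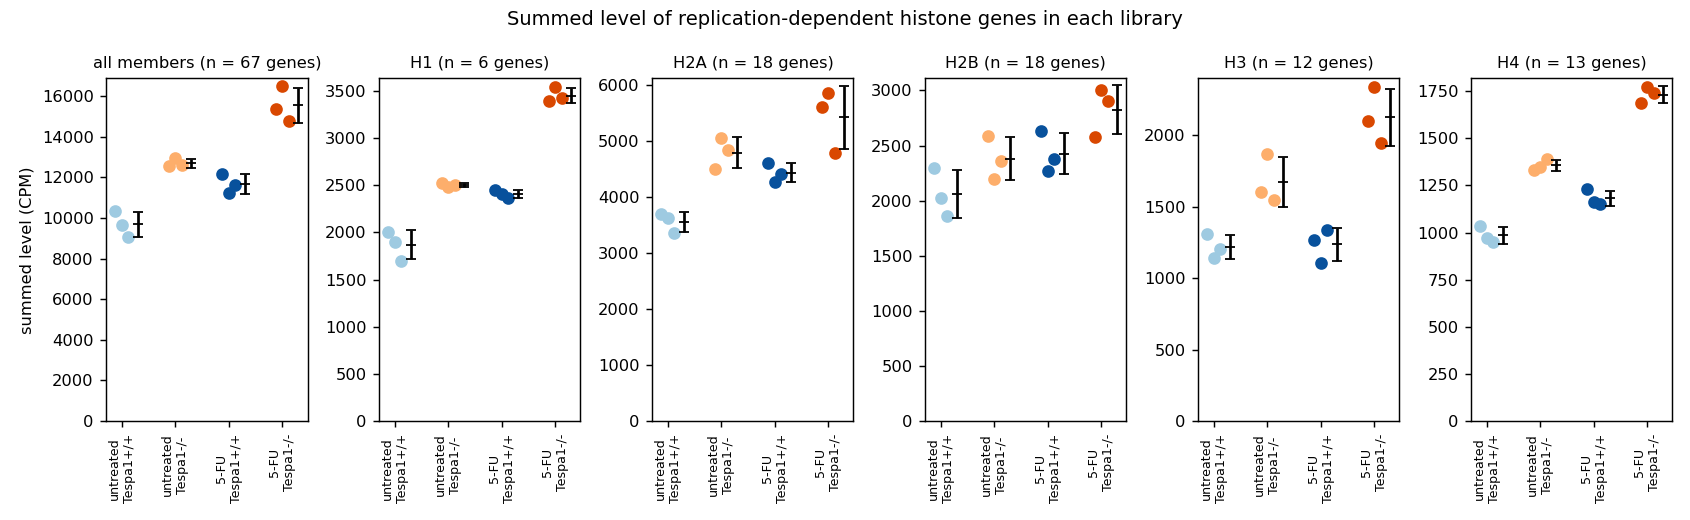
Summed level (CPM) of all 67 histone genes and of each class, by group. Points are the 3 libraries of a group and the bar beside them is the mean with its SD. Means over all members run from 9683 CPM in untreated Tespa1+/+ to 15549 CPM in Tespa1-/- after 5-FU, and the H3 means of the Tespa1+/+ groups lie within their SDs (untreated and after 5-FU 1217 and 1236 CPM).

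Among the linker histones, which compact the chromatin fiber, 3 members were followed by library. Hist1h1c (chr13:23738808-23740367, plus strand) had 669.5, 616 and 544 CPM in the untreated Tespa1+/+ libraries, 760.3, 738 and 714 CPM in untreated Tespa1-/-, 763, 751 and 751 CPM in Tespa1+/+ after 5-FU and 999, 1092 and 1047 CPM in Tespa1-/- after 5-FU. Its Tespa1-/- libraries lay above all Tespa1+/+ libraries under each treatment. Hist1h1d (chr13:23553262-23560686, plus strand) had 355, 311 and 288 CPM in the untreated Tespa1+/+ libraries, 530.1, 529 and 535 CPM in untreated Tespa1-/-, 539, 527 and 506 CPM in Tespa1+/+ after 5-FU and 769, 809 and 757 CPM in Tespa1-/- after 5-FU. Libraries of untreated Tespa1-/- and of Tespa1+/+ after 5-FU overlapped, and lay between the other groups. Hist1h1b (chr13:21779883-21780625, minus strand) had 236, 243 and 217 CPM in the untreated Tespa1+/+ libraries, 341, 334 and 345 CPM in untreated Tespa1-/-, 319, 306 and 319 CPM in Tespa1+/+ after 5-FU and 534, 551 and 581 CPM in Tespa1-/- after 5-FU. Untreated Tespa1+/+ was again lowest and Tespa1-/- after 5-FU highest, and no 2 of the 4 groups overlapped.

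H2A genes, whose product forms a dimer with H2B, include the most abundant member. Hist1h2ao (chr13:21810465-21810944, plus strand) had 1451, 1309 and 1361 CPM in the untreated Tespa1+/+ libraries, 1846, 1888 and 1771 CPM in untreated Tespa1-/-, 1699, 1569 and 1614 CPM in Tespa1+/+ after 5-FU and 2089.7, 2236 and 2086 CPM in Tespa1-/- after 5-FU. No library of any group overlapped those of another group. Hist1h2an (chr13:21786826-21787218, minus strand) had 37.7, 35.5 and 29.7 CPM in the untreated Tespa1+/+ libraries, 47.2, 49.9 and 50 CPM in untreated Tespa1-/-, 56.3, 55.3 and 59.9 CPM in Tespa1+/+ after 5-FU and 76.2, 87.5 and 83 CPM in Tespa1-/- after 5-FU. This smaller member kept the same order of groups as Hist1h2ao except that Tespa1+/+ after 5-FU lay above untreated Tespa1-/-.

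For H2B 4 members are given. Hist1h2bg (chr13:23571396-23572013, plus strand) had 330.2, 281 and 254 CPM in the untreated Tespa1+/+ libraries, 348, 351 and 346 CPM in untreated Tespa1-/-, 356, 333 and 309 CPM in Tespa1+/+ after 5-FU and 326, 340.5 and 337 CPM in Tespa1-/- after 5-FU. After 5-FU the genotypes overlapped, and they did not overlap untreated. Hist1h2bn (chr13:21754123-21754503, plus strand) had 277, 252 and 240.0 CPM in the untreated Tespa1+/+ libraries, 305, 312 and 302 CPM in untreated Tespa1-/-, 334, 308 and 299 CPM in Tespa1+/+ after 5-FU and 324, 353 and 350.5 CPM in Tespa1-/- after 5-FU. Its libraries after 5-FU also overlapped between the genotypes. Hist1h2bp (chr13:21787461-21789213, plus strand) had 15.2, 12 and 12.5 CPM in the untreated Tespa1+/+ libraries, 18.9, 17.9 and 18.2 CPM in untreated Tespa1-/-, 24, 27.1 and 27.4 CPM in Tespa1+/+ after 5-FU and 20.2, 23.6 and 24.4 CPM in Tespa1-/- after 5-FU. Here both groups after 5-FU lay above both untreated groups, and the genotypes overlapped after 5-FU. Hist3h2ba (chr11:58948920-58949533, plus strand) had 3.94, 4.63 and 3.12 CPM in the untreated Tespa1+/+ libraries, 5.09, 3.06 and 2.62 CPM in untreated Tespa1-/-, 7.97, 8.24 and 7.53 CPM in Tespa1+/+ after 5-FU and 10.1, 13.6 and 12.5 CPM in Tespa1-/- after 5-FU. This low member was at most 5.09 CPM in any untreated library and at least 7.53 CPM in any library after 5-FU.

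H3 genes encode the core histone whose tail carries many of the studied methylation marks. Hist1h3b (chr13:23752267-23752886, plus strand) had 189.8, 183 and 189 CPM in the untreated Tespa1+/+ libraries, 247, 239 and 264 CPM in untreated Tespa1-/-, 200.3, 169 and 189.7 CPM in Tespa1+/+ after 5-FU and 268, 308 and 304 CPM in Tespa1-/- after 5-FU. The Tespa1+/+ groups overlapped each other and lay below both Tespa1-/- groups. Hist1h3e (chr13:23561534-23562369, minus strand) had 187, 188 and 177 CPM in the untreated Tespa1+/+ libraries, 222, 237 and 239.5 CPM in untreated Tespa1-/-, 155, 154 and 166 CPM in Tespa1+/+ after 5-FU and 204, 277 and 252 CPM in Tespa1-/- after 5-FU. In Tespa1+/+ every library after 5-FU was below every untreated one. Hist1h3h (chr13:21717659-21718069, plus strand) had 136, 116 and 127 CPM in the untreated Tespa1+/+ libraries, 176, 168 and 179 CPM in untreated Tespa1-/-, 127, 126 and 134 CPM in Tespa1+/+ after 5-FU and 217, 231 and 234 CPM in Tespa1-/- after 5-FU. Hist1h3c (chr13:23744973-23745602, minus strand) had 93.7, 73.5 and 71.9 CPM in the untreated Tespa1+/+ libraries, 106, 109 and 107 CPM in untreated Tespa1-/-, 79.6, 78.9 and 82.5 CPM in Tespa1+/+ after 5-FU and 129.9, 136 and 145 CPM in Tespa1-/- after 5-FU. Hist1h3g (chr13:23535422-23535951, plus strand) had 50.6, 45.8 and 40.3 CPM in the untreated Tespa1+/+ libraries, 69.5, 66.9 and 73.2 CPM in untreated Tespa1-/-, 66.2, 57 and 51.2 CPM in Tespa1+/+ after 5-FU and 93.5, 109 and 104 CPM in Tespa1-/- after 5-FU. In all 3 of these the genotypes were apart under both treatments.

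H4 genes, whose product pairs with H3, had the following levels. Hist1h4d (chr13:23581598-23582735, plus strand) had 299, 301 and 295 CPM in the untreated Tespa1+/+ libraries, 327, 339 and 336 CPM in untreated Tespa1-/-, 349, 329 and 284 CPM in Tespa1+/+ after 5-FU and 412, 446 and 459 CPM in Tespa1-/- after 5-FU. The genotypes did not overlap under either treatment, and Tespa1+/+ after 5-FU overlapped both untreated groups. Hist1h4h (chr13:23531050-23531519, plus strand) had 156, 146 and 140.2 CPM in the untreated Tespa1+/+ libraries, 216, 222 and 235 CPM in untreated Tespa1-/-, 182, 182 and 182 CPM in Tespa1+/+ after 5-FU and 299.5, 279.9 and 276 CPM in Tespa1-/- after 5-FU. Hist1h4m (chr13:21811746-21812147, plus strand) had 94, 80.5 and 88.5 CPM in the untreated Tespa1+/+ libraries, 139, 139 and 144 CPM in untreated Tespa1-/-, 131, 111 and 109 CPM in Tespa1+/+ after 5-FU and 186, 203 and 205 CPM in Tespa1-/- after 5-FU. Both were highest in Tespa1-/- after 5-FU and lowest in untreated Tespa1+/+, with no overlap among the groups. Hist2h4 (chr3:96261682-96263311, minus strand) had 24.1, 22.1 and 21.8 CPM in the untreated Tespa1+/+ libraries, 40.3, 48.1 and 44.4 CPM in untreated Tespa1-/-, 38.3, 49.8 and 48.6 CPM in Tespa1+/+ after 5-FU and 67, 80.9 and 75.5 CPM in Tespa1-/- after 5-FU. Hist1h4j (chr13:21735064-21735837, plus strand) had 28.3, 28.9 and 26.3 CPM in the untreated Tespa1+/+ libraries, 52.2, 48.7 and 42.3 CPM in untreated Tespa1-/-, 37.6, 41.3 and 43 CPM in Tespa1+/+ after 5-FU and 64.9, 64.9 and 56.5 CPM in Tespa1-/- after 5-FU. Hist4h4 (chr6:136801553-136804415, minus strand) had 45.8, 38.2 and 40.8 CPM in the untreated Tespa1+/+ libraries, 69.9, 70.8 and 73 CPM in untreated Tespa1-/-, 51.8, 45.4 and 58.3 CPM in Tespa1+/+ after 5-FU and 80.4, 86.4 and 71.4 CPM in Tespa1-/- after 5-FU. All 3 had their lowest mean in untreated Tespa1+/+, which Tespa1+/+ after 5-FU overlapped in Hist4h4.

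**Figure D3:**
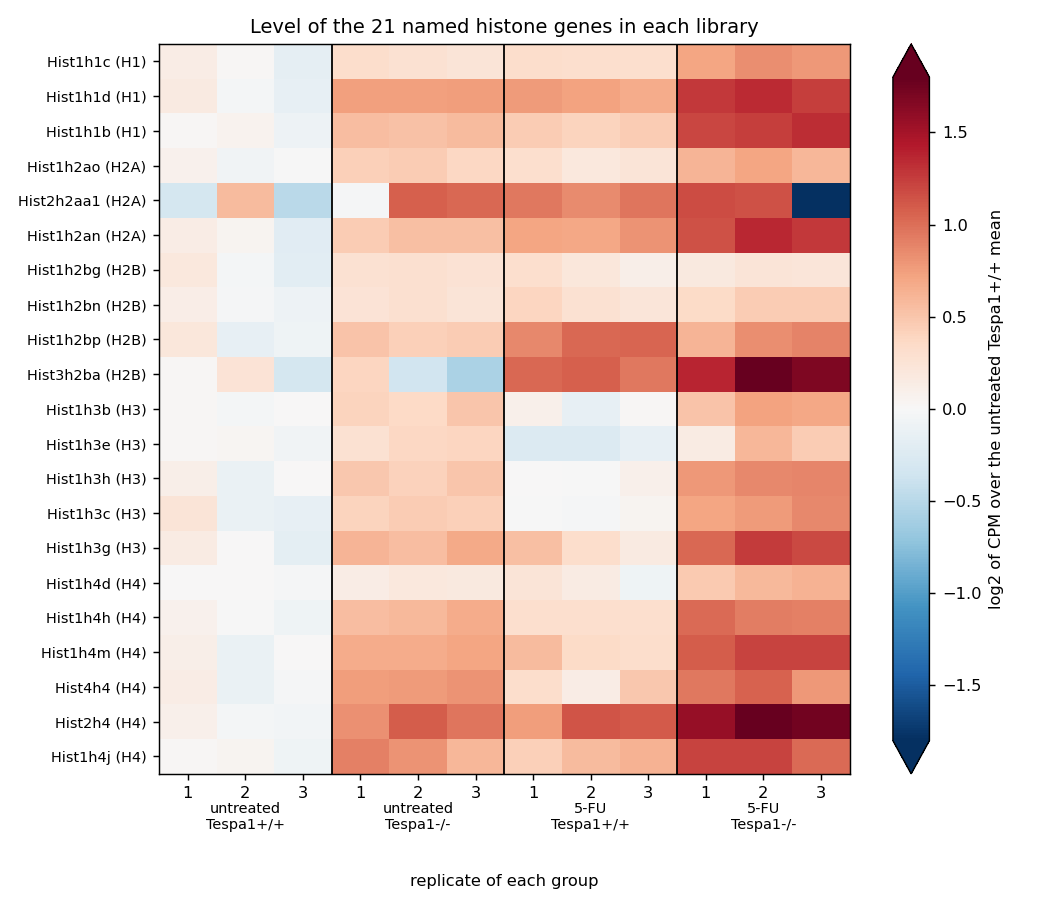
Level of 21 histone genes in the 12 libraries as log2 of the CPM over the mean of untreated Tespa1+/+, genes in rows by class and libraries in columns by group (colors end at 1.8 in either direction). Most rows are darkest red in Tespa1-/- after 5-FU, the H3 rows other than Hist1h3g are near white or pale blue in Tespa1+/+ after 5-FU, and Hist2h2aa1 has 1 library far below the rest.

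In untreated LSKs, most of the histone members were higher in Tespa1-/- than in Tespa1+/+, with the smallest share of calls in H2B. Of 66 members tested, 40 rose and 0 fell at an adjusted p below 0.05 (edgeR quasi-likelihood test on the 6 libraries, Benjamini-Hochberg over all 17055 genes), against 1.64% of all genes tested that rose and 3.59% that fell. The median log2 fold change of the members was 0.40, against 0.01 over all genes, and 63 of 66 were above 0. By class, 5 of 6 H1 members rose, 11 of 17 H2A, 6 of 18 H2B, 8 of 12 H3 and 10 of 13 H4, with medians of 0.37, 0.43, 0.28, 0.41 and 0.62. In 56 of 66 members every Tespa1-/- library lay above every Tespa1+/+ library, as in 11.4% of all genes tested. Untailed RNAs (such as Rn7s1) summed in these libraries to 26442 to 29453 CPM in Tespa1+/+ and 41749.6 to 43673 CPM in Tespa1-/-. Of the erythroid markers 2 of 9 tested rose, with sums of 22.7 to 31 CPM in Tespa1+/+ and 55.9 to 65.4 CPM in Tespa1-/-, and of the monocyte and macrophage markers 3 of 7, with 237 to 285 and 385 to 409.8 CPM. Of the B cell markers 3 of 7 fell, with 65.5 to 77 and 42.2 to 48.2 CPM, and of the late neutrophil markers 0 of 4 passed, with 0.769 to 1.96 and 4.83 to 5.94 CPM. The part of these RNAs and cells in the histone changes was not tested.

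The largest of these rises among called members was in Hist2h4 (log2 fold change 0.98 ± 0.10 (SE), edgeR adjusted p = 0.00128), from 22.7 ± 1.25 to 44.3 ± 3.92 CPM (SD, n = 3). Next were Hist1h4j (log2 fold change 0.79 ± 0.10 (SE), edgeR adjusted p = 0.00413), Hist4h4 (log2 fold change 0.79 ± 0.08 (SE), edgeR adjusted p = 0.00126), Hist1h1d (log2 fold change 0.75 ± 0.07 (SE), edgeR adjusted p = 4.83e-04) and Hist1h4m (log2 fold change 0.69 ± 0.07 (SE), edgeR adjusted p = 7.51e-04). Hist1h2ao, the most abundant member, rose 1.35-fold (log2 fold change 0.43 ± 0.04 (SE), edgeR adjusted p = 4.82e-04). Hist1h1b rose by 0.56 (adjusted p = 6.56e-04) on the log2 scale, Hist1h3b by 0.43 (adjusted p = 0.00299) and Hist1h4h by 0.62 (adjusted p = 6.56e-04). Hist1h2bg, with 0.29 (adjusted p = 0.0884), and Hist1h4d, with 0.17 (adjusted p = 0.0511), did not pass. With a fold above 1.5 required as well, the count of 40 was 9. With 1 library left out it was 20, 17 and 15 without untreated Tespa1-/- replicate 1, 2 or 3, and 40, 26 and 33 without untreated Tespa1+/+ replicate 1, 2 or 3.

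Between the genotypes after 5-FU, calls were again all in the direction of Tespa1-/-. Here too 40 of 66 members rose and 0 fell, against 7.34% of 17239 genes tested that rose and 5.78% that fell. Members had a median log2 fold change of 0.40, against -0.01 over all genes, and 63 of 66 members were above 0. By class, 5 of 6 H1 members rose, 13 of 17 H2A, 2 of 18 H2B, 9 of 12 H3 and 11 of 13 H4. Their medians were 0.49, 0.38, 0.22, 0.64 and 0.56, and no test of the difference between classes was made. In 50 of 66 members every Tespa1-/- library lay above every Tespa1+/+ one, against 17.2% of all genes tested. In these libraries the 12 late neutrophil markers summed to 3.66 to 8.98 CPM in Tespa1+/+ and 1078 to 1081 CPM in Tespa1-/-, and the 11 erythroid markers to 55.3 to 70.1 and 545 to 548 CPM.

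Hist1h1b rose most among called members (log2 fold change 0.82 ± 0.05 (SE), edgeR adjusted p = 8.21e-06), from 314 ± 7.42 to 555 ± 23.6 CPM (SD, n = 3). Next were the H3 members Hist1h3h (log2 fold change 0.82 ± 0.06 (SE), edgeR adjusted p = 3.57e-05), Hist1h3g (log2 fold change 0.82 ± 0.11 (SE), edgeR adjusted p = 0.0011) and Hist1h3c (log2 fold change 0.77 ± 0.07 (SE), edgeR adjusted p = 1.12e-04), and then Hist1h4m (log2 fold change 0.76 ± 0.08 (SE), edgeR adjusted p = 3.58e-04). Hist1h2ao rose 1.31-fold (log2 fold change 0.39 ± 0.04 (SE), edgeR adjusted p = 1.88e-04), Hist1h1c 1.39-fold and Hist1h1d 1.49-fold, Hist1h3b 1.57-fold, Hist1h3e 1.54-fold, Hist1h4d 1.37-fold and Hist1h4h 1.57-fold, all with an adjusted p below 0.05. Of the H2B members only Hist1h2bh (log2 fold change 0.37 ± 0.07 (SE), edgeR adjusted p = 0.0056) and Hist2h2bb (log2 fold change 0.36 ± 0.05 (SE), edgeR adjusted p = 0.002) passed, both named after their values were seen. Hist1h2bg, at 0.01 (adjusted p = 0.95), and Hist1h2bn, at 0.13 (adjusted p = 0.202), did not. Hist2h2bb overlaps Gm42743, a lincRNA gene on the same strand. The count was 15 with a fold above 1.5 required as well, and 36 to 41 with any 1 of the 6 libraries left out.

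The 2 comparisons of genotypes share no library. Of the 40 members called in each, 32 were called in both, which is 80% of either list. That is 48.5% of the 66 members tested in both comparisons, against 0.63% (103) of the 16341 genes tested in both. Another 8 were called only after 5-FU (Hist1h2af, Hist1h2ag, Hist1h2ap, Hist1h2bh, Hist1h3f, Hist1h4b, Hist1h4d and Hist3h2a) and 8 only untreated (Hist1h2ah, Hist1h2bc, Hist1h2bj, Hist1h2bk, Hist1h2bm, Hist1h2bn, Hist1h4a and Hist2h2ac), a difference that is not itself a test. Of the 18 members called in neither, 11 belong to H2B.

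**Figure D4:**
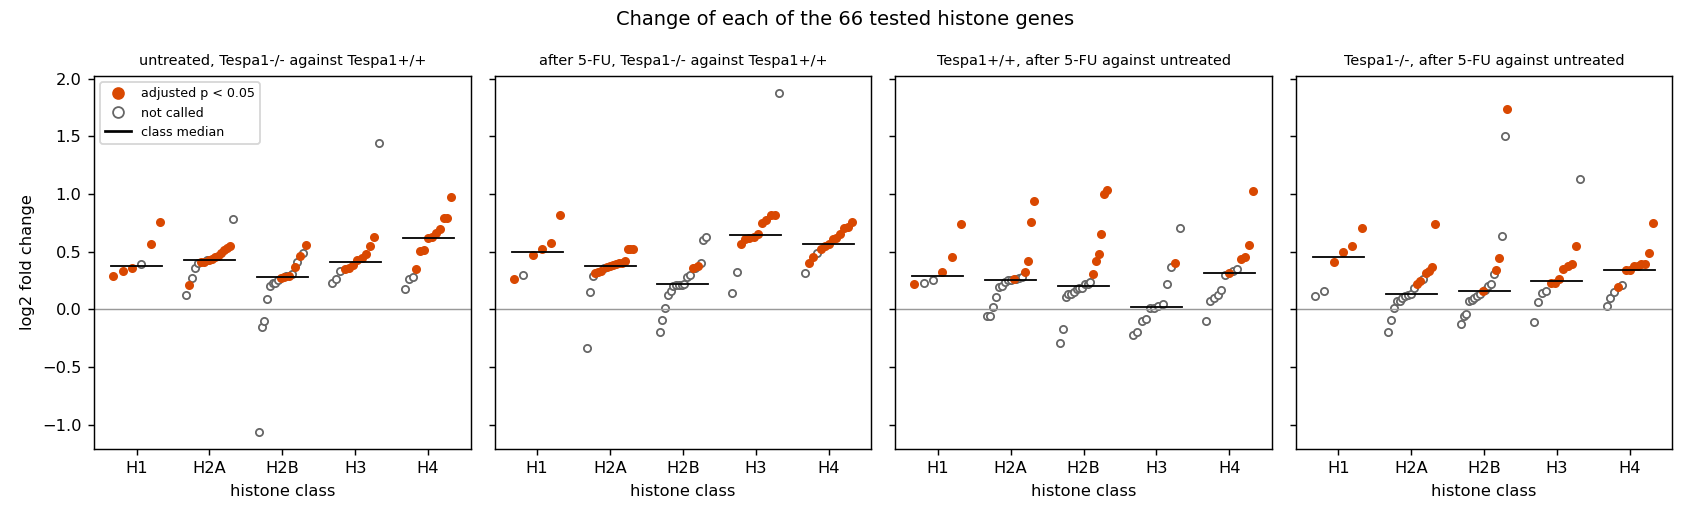
Log2 fold change of each of the 66 tested histone genes in 4 comparisons, by class. Filled points passed an adjusted p of 0.05 (edgeR), open points did not, and the line is the class median. Median changes of H3 and H4 in Tespa1-/- against Tespa1+/+ after 5-FU are 0.64 and 0.56, that of H2B is 0.22.

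At day 9 after 5-FU, Tespa1+/+ LSKs had more of some of these transcripts than untreated Tespa1+/+ LSKs, with the fewest calls in class H3. Of 66 members 21 rose and 0 fell, against 3.77% of 17002 genes tested that rose and 4.18% that fell. Their median log2 fold change was 0.23, that of all genes 0.01. Of the classes, 4 of 6 H1 members rose, 5 of 17 H2A, 6 of 18 H2B, 1 of 12 H3 and 5 of 13 H4, and the H3 median was 0.02. In 31 of 66 members every library after 5-FU lay above every untreated one, as in 13.2% of all genes tested. Over the same libraries 7 of 7 B cell markers tested rose, the 8 of the list from 65.5 to 77 to 287 to 297 CPM in sum, and 4 of 8 erythroid markers rose, the 11 of the list from 22.7 to 31 to 55.3 to 70.1 CPM. Untailed RNAs summed to 26442 to 29453 CPM untreated and 39271 to 41609.7 CPM after 5-FU. The part of these in the histone changes was not tested.

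The largest changes among called members were in Hist3h2ba (log2 fold change 1.04 ± 0.24 (SE), edgeR adjusted p = 0.0329), Hist2h4 (log2 fold change 1.02 ± 0.13 (SE), edgeR adjusted p = 0.00171), Hist1h2bp (log2 fold change 1.001 ± 0.15 (SE), edgeR adjusted p = 0.00392), Hist2h2aa1 (log2 fold change 0.94 ± 0.23 (SE), edgeR adjusted p = 0.0407) and Hist1h2an (log2 fold change 0.75 ± 0.11 (SE), edgeR adjusted p = 0.00329). Hist2h2aa1 is one of the members of unequal replicates, and its call was lost with DESeq2. The calls of Hist3h2ba and of Hist2h2aa1 were each lost under 7 of 13 alternatives, that of Hist3h2ba without a filter and in 5 of the fits without 1 library, among others. Hist1h1d rose 1.67-fold (log2 fold change 0.74 ± 0.07 (SE), edgeR adjusted p = 2.63e-04), Hist1h2ao 1.2-fold (log2 fold change 0.26 ± 0.04 (SE), edgeR adjusted p = 0.00478) and Hist1h4h 1.25-fold (log2 fold change 0.32 ± 0.06 (SE), edgeR adjusted p = 0.0114). Hist1h3b, at 0.01 (adjusted p = 0.958), Hist1h3h, at 0.04 (adjusted p = 0.792), and Hist1h3e, at -0.20 (adjusted p = 0.0889), did not pass. The count was 7 with a fold above 1.5 required as well, and fell to 9, 10 and 13 without Tespa1+/+ replicate 1, 2 or 3 after 5-FU and to 12 without untreated Tespa1+/+ replicate 3.

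In Tespa1-/- LSKs, some members of each class were higher at day 9 after 5-FU than untreated, with the smallest share of calls in H2B. Of 66 members 30 rose and 0 fell, against 10.7% of 17228 genes tested that rose and 8.64% that fell. Here the members had a median of 0.22 on the log2 scale, against -0.01 over all genes. By class 4 of 6 H1 members rose, 6 of 17 H2A, 4 of 18 H2B, 7 of 12 H3 and 9 of 13 H4, with a median of 0.25 in H3. The groups did not overlap, with the libraries after 5-FU higher, in 40 of 66 members, against 19.8% of all genes tested. In these libraries 12 of 12 late neutrophil markers rose, from 4.83 to 5.94 to 1078 to 1081 CPM in sum, 11 of 11 erythroid markers, from 55.9 to 65.4 to 545 to 548 CPM, and 7 of 8 B cell markers, from 42.2 to 48.2 to 325 to 343 CPM. Of the 10 LSK markers 3 rose and 3 fell, with sums of 1334 to 1384 CPM untreated and 796 to 862 CPM after 5-FU. Whether these cells had a part in the histone changes was not tested.

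Hist3h2ba had the largest change (log2 fold change 1.74 ± 0.27 (SE), edgeR adjusted p = 0.0024), from 3.59 ± 1.32 to 12 ± 1.78 CPM (SD, n = 3). No other called member doubled. It was followed by Hist2h4 (log2 fold change 0.75 ± 0.10 (SE), edgeR adjusted p = 8.89e-04), Hist1h2an (log2 fold change 0.74 ± 0.07 (SE), edgeR adjusted p = 2.07e-04), Hist1h1b (log2 fold change 0.70 ± 0.04 (SE), edgeR adjusted p = 1.11e-05) and Hist1h1d (log2 fold change 0.55 ± 0.04 (SE), edgeR adjusted p = 1.68e-05). Hist1h1c rose 1.41-fold, Hist1h3h 1.3-fold, Hist1h4d 1.31-fold and Hist1h2ao 1.16-fold. Hist1h2bg, at -0.06 (adjusted p = 0.311), Hist1h3e, at 0.07 (adjusted p = 0.694), and Hist4h4, at 0.15 (adjusted p = 0.218), did not pass. The count was 4 with a fold above 1.5 required as well, and 23 to 30 with any 1 of the 6 libraries left out. Each comparison of treatments shares its libraries with the comparisons of genotypes, so the counts of the 4 comparisons are not independent of each other.

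Whether the genotypes differed in their change with 5-FU was tested as an interaction over the 12 libraries. Of 66 members 4 were called higher and 1 lower, against 3.02% and 1.99% of 18696 genes tested, and the median over the members was -0.001. The difference between the log2 fold changes with 5-FU, Tespa1-/- minus Tespa1+/+, was above 0 for Hist3h2a (0.40 ± 0.08 (SE), edgeR adjusted p = 0.00899), Hist1h3f (0.39 ± 0.10, adjusted p = 0.0388), Hist1h3h (0.34 ± 0.09, adjusted p = 0.0381) and Hist1h1b (0.26 ± 0.07, adjusted p = 0.043). It was below 0 for Hist1h2bp (-0.68 ± 0.18, adjusted p = 0.0485). Hist3h2a had 149.7, 135 and 149.6 CPM in the untreated Tespa1+/+ libraries, 153, 162 and 154 CPM in untreated Tespa1-/-, 142, 138 and 133 CPM in Tespa1+/+ after 5-FU and 199, 196 and 198 CPM in Tespa1-/- after 5-FU. The genotypes did not overlap under either treatment. The Hist3h2a model runs 1643 bases past the stem-loop, and the gene overlaps the protein-coding gene Trim17 on the same strand. How reads of such an overlap were assigned is not given. Hist1h3f had 129, 122 and 131 CPM in the untreated Tespa1+/+ libraries, 145, 148 and 152 CPM in untreated Tespa1-/-, 105, 115 and 105 CPM in Tespa1+/+ after 5-FU and 149, 178 and 171 CPM in Tespa1-/- after 5-FU. In this H3 member every Tespa1+/+ library after 5-FU lay below every untreated one, and its own change passed in neither genotype, with -0.22 (adjusted p = 0.0993) in Tespa1+/+ and 0.16 (adjusted p = 0.154) in Tespa1-/-. These 5 are named as the only called members, and their number changed with the settings and with single libraries. The number higher was 1 with library totals and without a filter, and the number lower was 0 without a filter. The number higher was 3 without Tespa1-/- replicate 1 after 5-FU or untreated Tespa1+/+ replicate 3, and 1 or 2 without any other library. The number lower was 1 without Tespa1+/+ replicate 1 after 5-FU, 3 without untreated Tespa1+/+ replicate 1, and 0 without any other. For the other 61 members a p that missed the threshold does not show that the genotypes responded alike.

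Head-to-head H2A and H2B partners were compared pair by pair. Of the 11 pairs in which both genes were tested, the H2A member alone rose in 9 and neither rose in 2 when Tespa1-/- was compared with Tespa1+/+ after 5-FU, where 7.34% of all genes rose. In 2 of these 9 pairs the H2B partner is a member of unequal replicates: Hist1h2bq, with 0.63 (adjusted p = 0.63) against 0.39 (adjusted p = 1.88e-04) for Hist1h2ao, and Hist1h2br, with 0.28 (adjusted p = 0.68) against 0.38 (adjusted p = 0.0342) for Hist1h2ap. In untreated LSKs both rose in 3 pairs, the H2A member alone in 6, the H2B member alone in 1 and neither in 1, where 1.64% of all genes rose. Hist1h2an and Hist1h2bp are such a pair, with 0.52 (adjusted p = 0.0032) and -0.20 (adjusted p = 0.379) as the log2 fold change after 5-FU. In Tespa1+/+ with 5-FU both of this pair rose, by 0.75 (adjusted p = 0.00329) and 1.001 (adjusted p = 0.00392). Whether H2A and H2B partners differed was not tested.

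Members were also divided by their annotated 3′ end. Between genotypes after 5-FU, the median log2 fold change was 0.46 for the 46 members with a stem-loop in the model and 0.36 for the 20 tested without. It was 0.52 for the 23 whose model runs on past the stem-loop and 0.38 for the 23 whose model ends near it. In untreated LSKs these 4 medians were 0.40, 0.38, 0.35 and 0.43. The 8 tested members with at most 10% of their 50-base stretches shared with another gene, had medians of 0.52 after 5-FU and 0.48 untreated, and 6 of 8 were called in each comparison, where 40 of 66 members (60.6%) and 7.34% and 1.64% of all genes rose. These values are descriptions, and no test was made on them.

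The genes around histone supply are counted below against all genes tested, of which 1.64% rose and 3.59% fell between genotypes untreated, 7.34% and 5.78% after 5-FU, and with 5-FU 3.77% and 4.18% in Tespa1+/+ and 10.7% and 8.64% in Tespa1-/-. In untreated LSKs, 0 of 43 S phase genes (DNA replication and nucleotide supply) rose and 0 fell between genotypes, with a median log2 fold change of 0.01, beside 40 of 66 histone members. After 5-FU, 12 of 43 (27.9%) rose and 1 fell in Tespa1-/- against Tespa1+/+, with a median of 0.12. Rrm2, the ribonucleotide reductase subunit of S phase, had the smallest adjusted p (log2 fold change 0.79 ± 0.06 (SE), edgeR adjusted p = 7.71e-05), with 78.1 to 86.2 CPM in Tespa1+/+ and 139 to 143 CPM in Tespa1-/-. Untreated it was at 65.4 to 68.8 and 60.8 to 69.5 CPM. With 5-FU, 0 of 43 rose and 1 fell in Tespa1+/+, Mcm5 of the replicative helicase (log2 fold change -0.30 ± 0.05 (SE), edgeR adjusted p = 0.011), and 9 of 43 (20.9%) rose and 6 (14%) fell in Tespa1-/-. Untreated, the S phase gene with the smallest adjusted p was Dtl (log2 fold change -0.22 ± 0.07 (SE), edgeR adjusted p = 0.113).

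Replacement variants are made outside S phase too. Between genotypes untreated, 0 of 11 rose and 1 fell, H3f3b, which encodes a replacement H3 (log2 fold change -0.33 ± 0.06 (SE), edgeR adjusted p = 0.0219). After 5-FU 2 of 10 (20%) rose and 2 fell, against 7.34% and 5.78% of all genes. H2afx, the variant phosphorylated at DNA breaks, had 169, 169 and 181 CPM in Tespa1+/+ and 267, 283 and 257 CPM in Tespa1-/- after 5-FU (log2 fold change 0.64 ± 0.06 (SE), edgeR adjusted p = 1.51e-04), and 198, 189.7 and 205 and 206, 217 and 219 CPM untreated (log2 fold change 0.13 ± 0.05 (SE), edgeR adjusted p = 0.262). It is 1 of 13 genes outside the histone members with a stem-loop in its annotated transcript. Its interaction was 0.52 (adjusted p = 0.00187). H2afy, the macroH2A gene, fell (log2 fold change -0.39 ± 0.03 (SE), edgeR adjusted p = 1.19e-04), as did H1f0, the linker histone of resting and differentiated cells (log2 fold change -0.40 ± 0.09 (SE), edgeR adjusted p = 0.0193). H2afz had 0.38 (adjusted p = 0.242) after 5-FU and -0.08 (adjusted p = 0.865) untreated, and H3f3b -0.06 (adjusted p = 0.449) after 5-FU. With 5-FU 1 of 11 variants rose and 2 fell in Tespa1+/+, and 3 rose and 2 fell in Tespa1-/-. H1f0 rose in both, by 1.08 (adjusted p = 2.66e-04) in Tespa1+/+ and 0.90 (adjusted p = 4.18e-04) in Tespa1-/-, while H2afy fell in both, with -0.49 (adjusted p = 5.63e-05) and -0.77 (adjusted p = 1.1e-06).

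Of 19 genes that make, process or degrade histone mRNA, 1 (5.26%) rose and 2 (10.5%) fell in Tespa1-/- against Tespa1+/+ after 5-FU, against 7.34% and 5.78% of all genes tested. Slbp had 85.2 to 90.1 CPM in Tespa1+/+ and 101 to 112 in Tespa1-/- (log2 fold change 0.26 ± 0.07 (SE), edgeR adjusted p = 0.0343). Untreated it had 93.4 to 98.6 and 95.7 to 103 CPM (log2 fold change 0.04 ± 0.06 (SE), edgeR adjusted p = 0.812). Npat, the coactivator of histone genes in S phase, had -0.27 (adjusted p = 0.0635) and -0.20 (adjusted p = 0.261). Tut7 and Tut4 encode uridylyltransferases that act in RNA decay and were the 2 that fell, in both comparisons of genotypes. Tut7 was at 369 to 391 CPM in Tespa1+/+ and 264 to 293 CPM in Tespa1-/- after 5-FU (log2 fold change -0.45 ± 0.05 (SE), edgeR adjusted p = 5.98e-04), and untreated at 396 to 418 and 293 to 308 CPM (log2 fold change -0.42 ± 0.05 (SE), edgeR adjusted p = 0.00184). Tut4 had a log2 fold change of -0.26 (adjusted p = 0.0358) after 5-FU and -0.37 (adjusted p = 0.0101) untreated. With 5-FU, 1 of 19 rose in either genotype, Cpsf2, a cleavage factor subunit, with 0.36 (adjusted p = 0.00932) in Tespa1+/+ and 0.35 (adjusted p = 0.00365) in Tespa1-/-. Of 22 histone chaperones, 3 (13.6%) rose in Tespa1-/- against Tespa1+/+ after 5-FU, led by Chaf1a of chromatin assembly factor (log2 fold change 0.46 ± 0.06 (SE), edgeR adjusted p = 7.98e-04). Untreated, 0 of 22 passed, and the smallest adjusted p was that of Hjurp (-0.33, adjusted p = 0.0672). With 5-FU, Ssrp1 alone fell in Tespa1+/+ (-0.23, adjusted p = 0.0183), and 5 (22.7%) rose and 1, Nap1l1 (-0.59, adjusted p = 2.25e-04), fell in Tespa1-/-. In the interaction, Anp32e was the chaperone called (0.41, adjusted p = 0.0144), and Slbp had 0.23 (adjusted p = 0.167).

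RNAs that carry no poly-A tail were counted in these libraries too. Their summed level was 26442 to 29453 CPM in untreated Tespa1+/+, 41749.6 to 43673 in untreated Tespa1-/-, 39271 to 41609.7 in Tespa1+/+ after 5-FU and 35825 to 38249 in Tespa1-/- after 5-FU. In untreated LSKs, 6 of 15 tested (40%) rose in Tespa1-/- and 0 fell, against 1.64% and 3.59% of all genes, with a median log2 fold change of 0.41, close to the 0.40 of the histone members. In Tespa1+/+ with 5-FU 5 rose and 2 fell, with a median of 0.27. After 5-FU, by contrast, 0 rose and 2 fell between genotypes, with a median of -0.22, where the histone median was 0.40. In Tespa1-/- with 5-FU 1 rose and 9 fell, with a median of -0.37, where the histone median was 0.22. Rn7s1, a signal recognition particle RNA, had 11497 to 12496 and 17621 to 18876 CPM untreated (log2 fold change 0.60 ± 0.03 (SE), edgeR adjusted p = 3.61e-05), and 13924 to 15039.9 and 13549 to 13795 CPM after 5-FU (log2 fold change -0.08 ± 0.02 (SE), edgeR adjusted p = 0.0527). Rpph1, the RNase P RNA, rose in Tespa1+/+ with 5-FU (log2 fold change 1.48 ± 0.08 (SE), edgeR adjusted p = 1.92e-05). Rprl3, an RNase P RNA-like gene, had 303 to 339 CPM in Tespa1+/+ after 5-FU and was below the limit of 3 counts in each Tespa1-/- library after 5-FU. Not in this list are Gm26917 and Gm42418 of chromosome 17, whose levels are given below. Both were higher in every Tespa1-/- library than in every Tespa1+/+ library under each treatment. Whether their transcripts carry a tail was not examined. The part of untailed RNA in the histone changes was not tested.

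**Figure D5:**
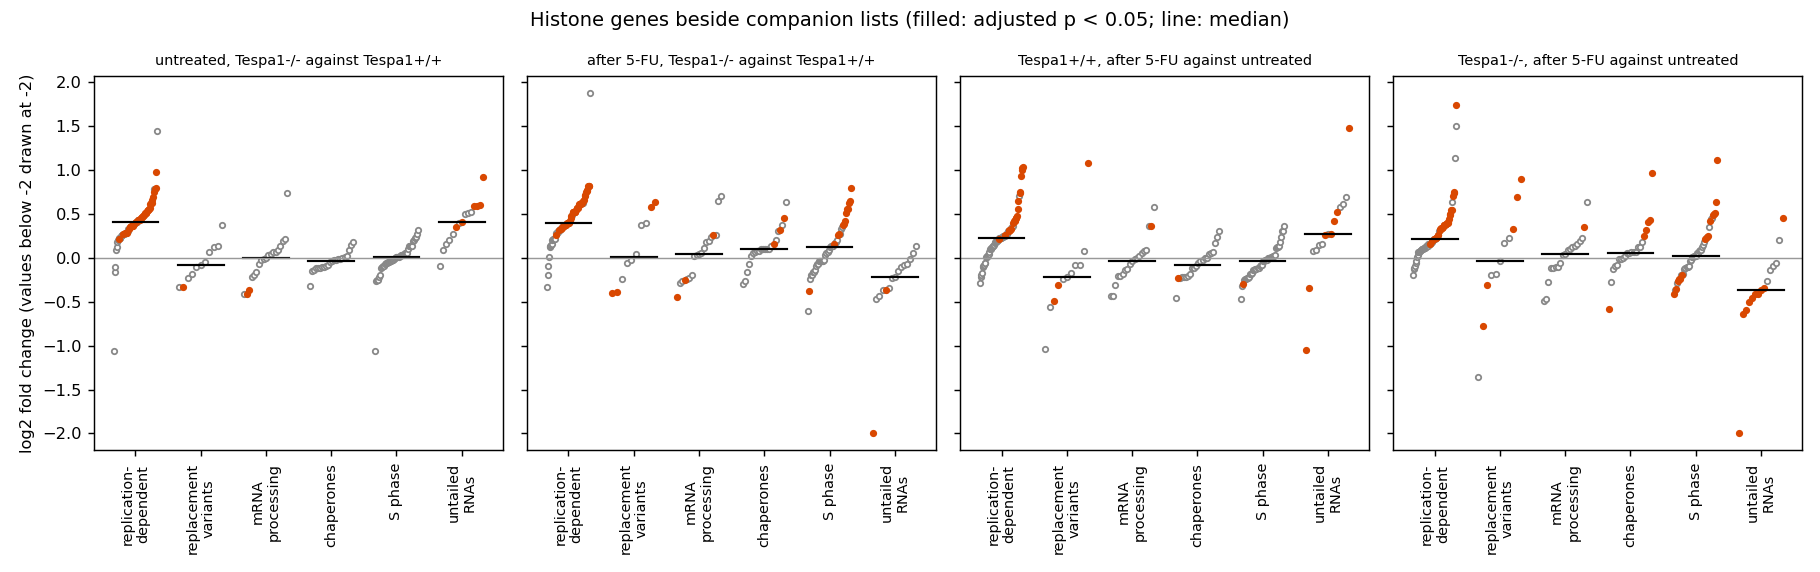
Log2 fold change of the histone members beside replacement variants, histone mRNA processing genes, chaperones, S phase genes and untailed RNAs in 4 comparisons (filled points: adjusted p below 0.05; lines: medians; values below -2 are drawn at -2). The histone medians are 0.40, 0.40, 0.23 and 0.22 from left to right, and those of the untailed RNAs 0.41, -0.22, 0.27 and -0.37.

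Other quantities differed between the same groups. Gm26917, the gene with the most counts in every library, had 62239 to 65240.4 CPM in untreated Tespa1+/+, 74507 to 79612 in untreated Tespa1-/-, 60296 to 62994 in Tespa1+/+ after 5-FU and 80610.2 to 84029.5 in Tespa1-/- after 5-FU. Gm42418, beside it on chromosome 17, had 8327 to 9475, 10794 to 11285, 8199 to 8756 and 10913 to 12845 CPM in the same order. The 12 late neutrophil markers summed to 0.769 to 1.96, 4.83 to 5.94, 3.66 to 8.98 and 1078 to 1081 CPM in the same order, with Cd177 at 0 counts in all groups but Tespa1-/- after 5-FU. The 11 erythroid markers summed to 22.7 to 31, 55.9 to 65.4, 55.3 to 70.1 and 545 to 548 CPM, and 11 of 11 rose in Tespa1-/- against Tespa1+/+ after 5-FU. The 8 B cell markers summed to 65.5 to 77, 42.2 to 48.2, 287 to 297 and 325 to 343 CPM, the 8 monocyte and macrophage markers to 237 to 285, 385 to 409.8, 304 to 315 and 429 to 442 CPM, and the 7 T cell markers to at most 11.7 CPM. The part of these cells, and of Gm26917 and Gm42418, in the histone changes was not tested.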

How the data were processed

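The authors deposited, for 12 LSK libraries, raw counts of reads per gene and FPKM values for 53465 genes. The deposited FPKM values follow from the counts and a length per gene, with a relative spread of 4.3e-06 over 8529 genes, and were used only to compare levels between genes. The submitters' processing notes name CASAVA 1.8, HISAT2, StringTie, edgeR and GRCm38. How reads shared by copies were assigned is not given in the sources used here. Groups came from the labels.

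The tests used the quasi-likelihood method of edgeR 4.0.16 under R 4.3.3 (filterByExpr with a minimum count of 10, TMM, glmQLFTest) on the 6 libraries of each comparison, and on 12 for the interaction. p-values were adjusted by Benjamini-Hochberg over all genes tested. The SE of an edgeR log2 fold change was derived from the test, as its absolute value divided by the square root of the F statistic. CPM used TMM factors over the 12 libraries. DESeq2 1.42.0, other scalings, filters and thresholds, the replicate block and leaving out each library were alternatives. Stem-loops and shared 50-base stretches were read from GENCODE M21 transcripts.

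Members named are the 2 highest of each class and up to 5 per direction with the largest log2 fold change among called members of at least 1 CPM. The members, lists and rules were chosen with earlier results of these data known. Replicates of a group differed by more than sampling noise.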

Additional observations from a re-analysis of the deposited data

Results flagged for a closer look

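In the interaction test of edgeR over the 12 libraries, 4 of 66 members (6.06%) were called higher and 1 (1.52%) lower, against 3.02% and 1.99% of all genes tested, so the count is no result about the members as a group. The number higher was 1 with library totals and without a filter, and the number lower was 0 without a filter. The difference in log2 fold change, Tespa1-/- minus Tespa1+/+, was 0.40 for Hist3h2a, 0.39 for Hist1h3f, 0.34 for Hist1h3h, 0.26 for Hist1h1b and -0.68 for Hist1h2bp. Hist3h2a had in Tespa1+/+ a log2 fold change of -0.05 (adjusted p = 0.706) and rose in Tespa1-/- (0.33, adjusted p = 0.0014). Hist1h3f had -0.22 (adjusted p = 0.0993) in Tespa1+/+ and 0.16 (adjusted p = 0.154) in Tespa1-/-, and Hist1h3h had 0.04 (adjusted p = 0.792) and 0.38 (adjusted p = 0.00111). Hist1h1b rose in both genotypes, by 0.45 (adjusted p = 0.00163) and 0.70 (adjusted p = 1.11e-05). Hist1h2bp rose in Tespa1+/+ (1.001, adjusted p = 0.00392) and had 0.31 (adjusted p = 0.111) in Tespa1-/-. No group has 4 or more libraries, so single outlying libraries were not tested for.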

How the results depend on the processing

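The number of members that fell was 0 in all 4 comparisons of 2 groups under each alternative, except 1 without untreated Tespa1-/- replicate 1. The numbers that rose depended most on a fold threshold. With an adjusted p below 0.05 and a fold above 1.5, they were 15 (genotypes after 5-FU), 9 (genotypes untreated), 7 (5-FU in Tespa1+/+) and 4 (5-FU in Tespa1-/-). With an adjusted p below 0.05 and a fold above 2, they were 0, 0, 3 and 1, and with an unadjusted p below 0.05 and a fold above 1.5, they were 16, 10, 7 and 5. The interaction count of 4 higher was 1 with library totals, without a filter and with the replicate block, and 0 with any fold limit. Its 1 lower was 0 without a filter, with the replicate block and with a fold above 2. With 1 library left out, the numbers higher ran from 36 to 41 (genotypes after 5-FU), 15 to 40 (genotypes untreated), 9 to 22 (5-FU in Tespa1+/+), 23 to 30 (5-FU in Tespa1-/-) and 1 to 3 (interaction). The numbers lower were 0 to 0, 0 to 1, 0 to 0, 0 to 0 and 0 to 3. With the replicate block the genotype count in untreated LSKs was 23, and the others were 38, 18 and 28. Libraries of the same number in different groups did not deviate together (correlations of -0.076 to 0.027), so the numbers do not pair the libraries. The cause of these shifts was not tested.

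Without the most abundant member, the summed level was 8309.5 CPM (Tespa1+/+) and 10861.5 CPM (Tespa1-/-) without treatment, and 10052.7 and 13412 CPM after 5-FU. Without the 4 members of unequal replicates, an alternative chosen after seeing the data, it was 8949, 11704.5, 10615 and 14229 CPM, and the counts of members that rose were 40, 40, 20 and 30. Of 793 refits of the 61 calls of named members, 725 kept their call and 68 lost it, 0 with a change of sign. Scaling by RLE factors or library totals left the median of all genes between -0.065 and 0.06.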
